A study of Mus musculus with 9 samples.

Results

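Macrophage genes were followed in the tissue of the forming upper lip. The 10 genes examined are Csf1r, Cx3cr1, C1qa, C1qb, C1qc, Tyrobp, Fcer1g, Mrc1, Lyve1 and Ptprc. They were found by symbol in the deposited table, where each has 1 row among 54532 genes, of which 30199 had at least 1 count. The table holds RNA-seq read counts of lambdoidal junction tissue, the place where the nasal and maxillary prominences meet, from mice of the C57BL/6J strain, collected on embryonic day 10.5 (E10.5), 11.5 (E11.5) or 12.5 (E12.5). There were 3 libraries per stage, with no treatment or allele named beyond the strain, and each library was made from a pool of embryos. P-values therefore measure the spread between pooled libraries, not between animals. No cells were sorted, so fewer macrophages and less RNA per macrophage cannot be told apart in any value given here.

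Macrophages of the early embryo arise from yolk sac progenitors and enter the tissues before the bone marrow exists, where they clear dying cells and bind microbes and debris. They depend on the receptor CSF1R, sense the environment through receptors coupled to ITAM adaptor chains, and are the main tissue source of complement C1q. Some of the genes are also used by other cells: Ptprc (CD45) by other white blood cells, Fcer1g by mast cells and platelets, Tyrobp by natural killer cells, and Lyve1 and Mrc1 by lymphatic endothelium.

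On GRCm38 the genes are given by their deposited coordinates, and the C1q genes are neighbours. C1qb (chromosome 4, 136880129 to 136886187), C1qc (136889804 to 136893065) and C1qa (136895917 to 136898803) all lie on the minus strand. Mrc1 lies on chromosome 2 (14229392 to 14332057, plus strand), Cx3cr1 on chromosome 9 (119901616 to 120069879, minus strand), Tyrobp (30413760 to 30417585, plus strand) and Lyve1 (110850607 to 110863239, minus strand) on chromosome 7, and Fcer1g (171229572 to 171234365) and Ptprc (138062861 to 138175708) on the minus strand of chromosome 1.

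Promoter windows of 300 bases around a RefSeq start site (GRCm38.p6) were found for 6 of the 10 genes, with 7 windows in all. They were searched on both strands for GAGGAA, 1 form of the site that ETS factors bind. They were also searched for GAGGAAGT, the longer form favoured by PU.1 (Spi1), the factor that opens myeloid genes. Every match of the longer form holds the shorter form. Other forms of the ETS site were not searched, and unmarked stretches can hold them. The shorter form was present in 4 of the 7 windows, against 28.3% of 32851 RefSeq windows, and the longer form in 1 of the 7, against 3.20%. The windows of Mrc1 and C1qb and part of that of C1qc are shown because Mrc1 had the clearest rise with stage and the C1q genes covaried closely, with matches in capitals, written as their reverse complement where they lie on the opposite strand (all those of Mrc1 and C1qc). Mrc1 is read from chr2:14229164-14229463, plus strand, with matches beginning 180, 167 and 35 bases before the start site. C1qb is read from chr4:136886151-136886450, minus strand, with 1 match beginning 30 bases before the start site. For C1qc the 99 bases just upstream of the deposited gene are given (chr4:136893066-136893164, minus strand), in which the longer form begins 44 bases before the gene. A match is a run of letters and not a measured binding site.
Mrc1: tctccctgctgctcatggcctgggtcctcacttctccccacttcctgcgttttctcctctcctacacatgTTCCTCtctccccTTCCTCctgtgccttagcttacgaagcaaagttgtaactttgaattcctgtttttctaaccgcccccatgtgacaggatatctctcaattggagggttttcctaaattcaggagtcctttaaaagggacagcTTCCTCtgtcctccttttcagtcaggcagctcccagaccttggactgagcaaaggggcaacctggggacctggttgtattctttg
C1qb: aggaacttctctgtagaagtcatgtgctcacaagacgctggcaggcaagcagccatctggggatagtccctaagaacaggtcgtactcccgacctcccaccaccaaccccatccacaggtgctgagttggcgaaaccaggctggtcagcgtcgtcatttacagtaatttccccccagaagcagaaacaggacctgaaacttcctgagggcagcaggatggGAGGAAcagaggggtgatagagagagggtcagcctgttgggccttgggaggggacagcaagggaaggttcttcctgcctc
C1qc: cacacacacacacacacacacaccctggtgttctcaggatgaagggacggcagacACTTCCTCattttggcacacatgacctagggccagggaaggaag

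The libraries held 16581009 to 20836804 counts, of which 451 to 990 per library fell on the 10 genes. E10.5 replicate 3 stood apart from the other E10.5 libraries. Its gap to the others varied with base composition (Spearman correlation of the gap with GC content -0.55 over genes, against 0.44 and 0.47 for replicates 1 and 2), and it held fewer reads of endothelial markers (174 summed CPM against 497 and 517) and of facial mesenchyme markers (1296 against 2231 and 2294). Results that rest on it are given with and without it.

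All 10 genes were detected, at low levels. CPM are read counts scaled to a common library size (TMM) and serve to compare 1 gene between stages. Levels of different genes were compared only in the deposited FPKM, which are per gene length. At E12.5 the order by mean FPKM was C1qb (6.27 ± 1.35, SD, n = 3), C1qa (4.52 ± 1.24), Fcer1g (4.01 ± 0.783), Tyrobp (3.16 ± 0.487), C1qc (2.74 ± 0.771), Csf1r (2.25 ± 0.314), Mrc1 (1.55 ± 0.0750), Cx3cr1 (1.53 ± 0.310), Lyve1 (0.115 ± 0.0211) and Ptprc (0.0917 ± 0.0217). Neighbours in this order had overlapping libraries, except that all Csf1r libraries lay above Mrc1 and all Cx3cr1 libraries above Lyve1. The small secreted and adaptor proteins were thus the top of the list, and Lyve1 and Ptprc, with overlapping libraries, its end. Lyve1 was last at E10.5 and at E11.5. The place of Ptprc also rests on its deposited gene length of 18313 bases, against 667 (Tyrobp) to 6371 (Mrc1) for the others. C1qb lay above 56.2% of the genes that passed the filter on low counts (16375 genes), and Ptprc above 1.80% of them. At E10.5 C1qb was also first (4.28 ± 1.53 FPKM) and C1qa was sixth (1.43 ± 1.00), with overlapping neighbours from C1qb down to Cx3cr1.

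Taken as a sum, which was not tested, the 10 genes were highest at E12.5. Their summed CPM was 41.5, 33.9 and 27.9 in E10.5 replicates 1 to 3, 38.5 to 42.7 at E11.5 and 49.2 to 55.8 at E12.5. All 3 E12.5 libraries lay above the other 6 libraries, whereas the E10.5 and E11.5 libraries overlapped. The stage means were 34.5 ± 6.82, 40.8 ± 2.10 and 53.0 ± 3.40 CPM (SD, n = 3).

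**Figure D1:**
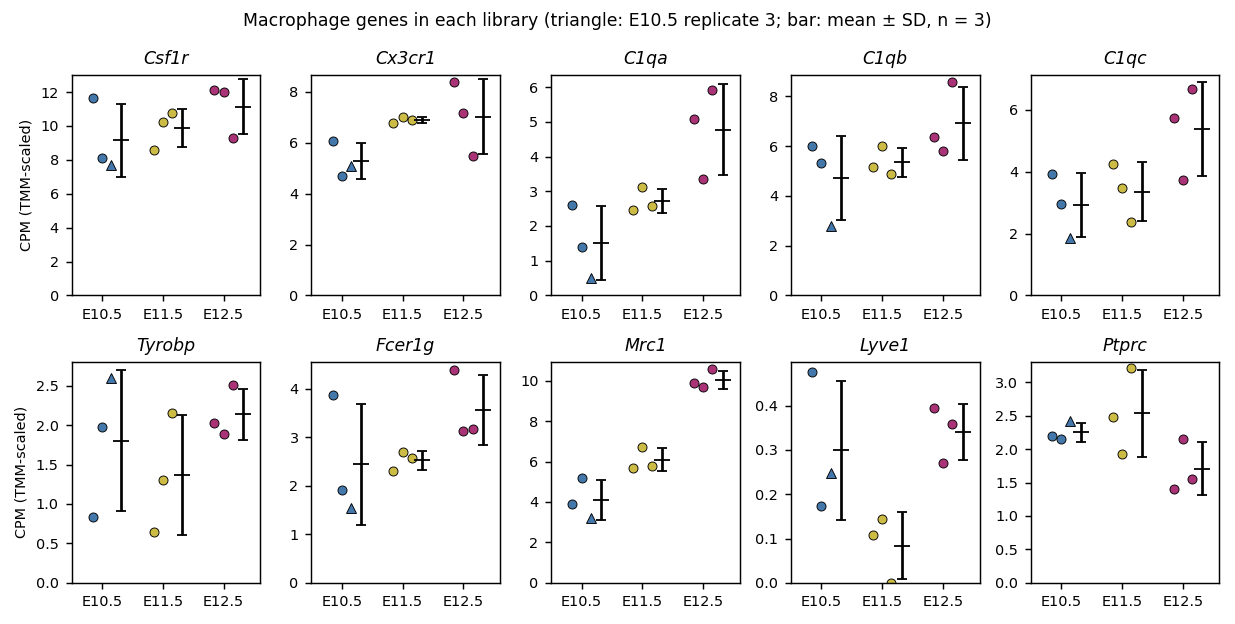
CPM of each of the 10 macrophage genes in every library (points; the triangle is E10.5 replicate 3) by stage, with mean ± SD (n = 3) as bars; each panel has its own axis from 0. The 3 E12.5 libraries of Mrc1 lie between 9.70 and 10.6 CPM, above all other libraries, and those of C1qa between 3.34 and 5.90.

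The stages were compared in pairs, each on its own 6 libraries, by edgeR's quasi-likelihood test, and p-values were adjusted over all genes tested (Benjamini-Hochberg). A gene was called when its adjusted p was at most 0.05 and its absolute log2 fold change at least 1. Lyve1 had too few counts to be tested, which leaves 9 of the 10 genes. With 3 libraries against 3, an exact permutation test cannot give p below 0.1, so the calls rest on the spread that edgeR estimates across genes.

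Over the whole span, E12.5 against E10.5, the mannose receptor gene Mrc1 and the C1q A chain gene C1qa rose, and no macrophage gene fell. Of the 9 genes tested 2 were called higher, against 9.97% of the 15899 genes tested, and 0 were called lower, against 5.08%. The estimate was above 0 for 8 of the 9, all except Ptprc, with a median log2 fold change of 0.55 against -0.0063 over all genes. Libraries of the stages did not overlap for the same 2 genes, whereas 42.4% of all genes had such a separation in either direction. At an unadjusted p under 0.05 there were 3 genes, the additional one being C1qc. Without E10.5 replicate 3 Mrc1 and C1qa were again the 2 genes called, but the call of C1qa was lost without E10.5 replicate 2, E12.5 replicate 1 or E12.5 replicate 3 (edgeR adjusted p 0.0528, 0.0889 and 0.108).

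Between E10.5 and E11.5 no macrophage gene was called in either direction by edgeR, against 3.46% of the 15708 genes tested called higher and 2.61% called lower. The unadjusted p was under 0.05 for 1 gene, Mrc1, and DESeq2 also called 0 of the genes. The libraries did not overlap for Cx3cr1 and Mrc1, both higher at E11.5, against 36.7% of all genes in either direction. The median log2 fold change of the 9 genes was 0.19, against -0.032 over all genes.

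Between E11.5 and E12.5 again 0 of the 9 were called in either direction by edgeR and by DESeq2, against 4.14% of the 15808 genes called higher and 0.962% called lower. The unadjusted p was under 0.05 for 3 genes, C1qa, C1qc and Mrc1, and Mrc1 had an adjusted p of at most 0.05 with a fold change below the threshold. Libraries did not overlap for C1qa, Fcer1g and Mrc1, all higher at E12.5, against 35.3% of all genes in either direction. The median log2 fold change of the 9 genes was 0.49, against 0.0187 over all genes. Whether the 2 intervals differ was tested on all 9 libraries as the later minus the earlier change. The adjusted p was at most 0.05 for 0 of the 9 genes (edgeR, adjusted p 0.611 to 0.985, no unadjusted p under 0.05), against 1.18% of 16375 genes. By DESeq2 the count was also 0.

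**Figure D2:**
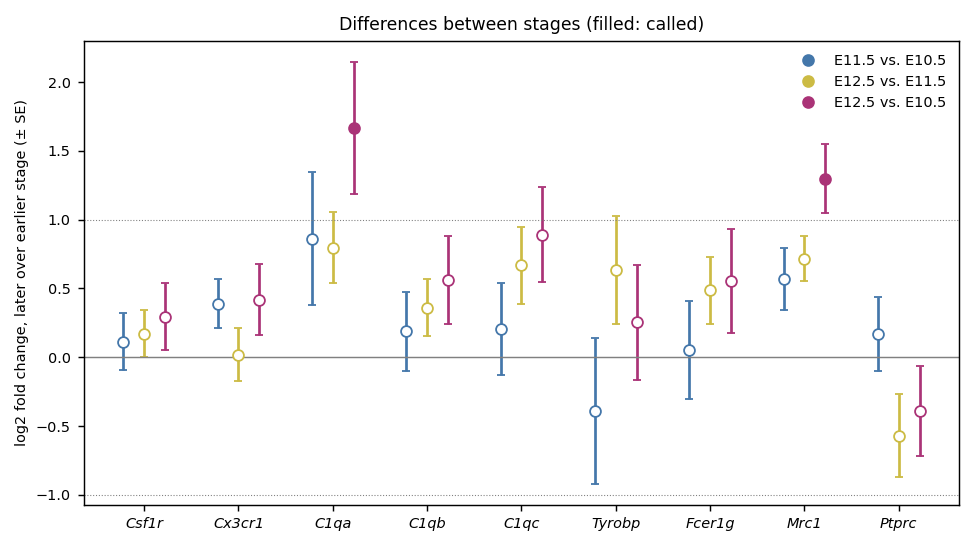
Log2 fold change (later stage over earlier) with its SE for the 9 genes tested, in the 3 comparisons (colours); filled points were called and dotted lines mark the fold-change threshold. Mrc1 (1.30) and C1qa (1.67) are the filled points, both in E12.5 vs. E10.5, and Ptprc and Tyrobp hold the points below 0.

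CSF1R transmits the survival signal of CSF1 and IL-34. Csf1r lies on the plus strand of chromosome 18 (61105572 to 61132149), and 15.12% of its exon sequence overlaps Hmgxb3 on the opposite strand, so its counts could include reads of Hmgxb3 if strand was not used in counting. Over all libraries Csf1r had the most reads of the 10 genes, with 196, 140 and 124 counts in the E10.5 libraries, 160, 213 and 204 in those of E11.5 and 215, 223 and 156 in those of E12.5. The stages overlapped in each pair. Its CPM was 9.15 ± 2.17, 9.87 ± 1.12 and 11.2 ± 1.60 (SD, n = 3), and the log2 fold change of E12.5 over E10.5 was 0.29 (SE 0.24, edgeR adjusted p = 0.418). The fractalkine receptor gene Cx3cr1 had 6.06, 4.70 and 5.08 CPM in the E10.5 libraries, 6.78, 7.02 and 6.90 in those of E11.5 and 8.40, 7.17 and 5.49 in those of E12.5. Every E11.5 library lay above every E10.5 library, but the E12.5 libraries spread over both. Its log2 fold change was 0.39 (SE 0.18, edgeR adjusted p = 0.202) from E10.5 to E11.5 and 0.019 (SE 0.19, edgeR adjusted p = 0.957) from E11.5 to E12.5.

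C1q is built from A, B and C chains, and macrophages release it to tag material for removal. C1qa counts were 44, 24 and 8 in the E10.5 libraries, 46, 65 and 49 in those of E11.5 and 90, 62 and 99 in those of E12.5. In CPM the E12.5 libraries lay above all others (3.34 to 5.90, against at most 3.13 at E11.5), and E10.5 replicate 3 was the lowest library. Mean CPM was 1.501 ± 1.06, 2.73 ± 0.349 and 4.77 ± 1.31 (SD, n = 3), a 3.18-fold rise over the whole span (log2 fold change 1.67, SE 0.48, edgeR adjusted p = 0.0271). Its size depended on single E10.5 libraries: the log2 fold change was 2.31 without replicate 1 (edgeR adjusted p = 0.00418) and 1.26 without replicate 3 (edgeR adjusted p = 0.0265). In the 3 fits that lost the call it was 1.61, 1.62 and 1.48. From E11.5 to E12.5 alone it was 0.80 (SE 0.26, edgeR adjusted p = 0.0681).

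C1qb and C1qc had the same order of stage means without passing the test. C1qb had 6.002, 5.34 and 2.79 CPM in the E10.5 libraries, 5.17, 6.01 and 4.90 in those of E11.5 and 6.37, 5.82 and 8.59 in those of E12.5. The stages overlapped, and E10.5 replicate 3 was again the lowest library. C1qc had 3.92, 2.96 and 1.86 CPM in the E10.5 libraries, 4.25, 3.46 and 2.37 in those of E11.5 and 5.75, 3.72 and 6.68 in those of E12.5, with overlap in each pair of stages. The log2 fold change of E12.5 over E10.5 was 0.56 for C1qb (SE 0.32, edgeR adjusted p = 0.223) and 0.89 for C1qc (SE 0.34, edgeR adjusted p = 0.0838). The C1q genes are rich in GC (57.4% to 59.5% in their longest transcript, against a median of 49.7% over genes), and E10.5 replicate 3 had the GC trend given above. The part of base composition in their low values in that library was not tested. In the fit with the GC trend of each library removed, the log2 fold change of C1qa over the whole span was 1.60 (edgeR adjusted p = 0.0150).

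Tyrobp (DAP12) and Fcer1g are the small ITAM chains through which TREM2 and Fc receptors signal. Tyrobp counts were 14, 34 and 42 in the E10.5 libraries, 12, 27 and 41 in those of E11.5 and 36, 35 and 42 in those of E12.5. In CPM the highest library was more than 3 times the lowest at E10.5 and at E11.5, but at E12.5 they were close together. The log2 fold change was -0.39 (SE 0.53, edgeR adjusted p = 0.680) from E10.5 to E11.5 and 0.63 (SE 0.39, edgeR adjusted p = 0.305) from E11.5 to E12.5. Fcer1g counts were 65, 33 and 25 in the E10.5 libraries, 43, 56 and 49 in those of E11.5 and 78, 58 and 53 in those of E12.5. In CPM every E12.5 library of Fcer1g lay above every E11.5 library, and E10.5 overlapped both. Its log2 fold change from E11.5 to E12.5 was 0.48 (SE 0.24, edgeR adjusted p = 0.202).

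MRC1 (CD206) takes up glycoproteins and marks resident tissue macrophages. Mrc1 had 3.92, 5.17 and 3.22 CPM in the E10.5 libraries, 5.70, 6.73 and 5.79 in those of E11.5 and 9.86, 9.70 and 10.6 in those of E12.5. The 3 stages did not overlap anywhere, and the E12.5 libraries were the closest to each other. The mean rose 2.46-fold over the whole span (4.10 ± 0.986 to 10.04 ± 0.453 CPM, SD, n = 3), a log2 fold change of 1.30 (SE 0.25, edgeR adjusted p = 0.00390). It was 0.57 (SE 0.23, edgeR adjusted p = 0.145) in the interval to E11.5 and 0.72 (SE 0.16, edgeR adjusted p = 0.0178) in the interval to E12.5. The rise over the whole span was called in every alternative run, with log2 fold changes of 1.07 to 1.49, and without E10.5 replicate 3 it was 1.15 (edgeR adjusted p = 0.00433). The adjusted p of the later interval was above 0.05 in the fit on all 9 libraries (0.0543) and when any E11.5 library (0.0563 to 0.0946) or E12.5 replicate 1 (0.0583) was left out.

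Lyve1, a hyaluronan receptor of resident macrophages and lymphatic vessels, was near the limit of detection. Its counts were 8, 3 and 4 in the E10.5 libraries, 2, 3 and 0 in those of E11.5 and 7, 5 and 6 in those of E12.5. All E11.5 libraries were at or below 3 counts, the floor used here. The pooled ratio of E11.5 to E10.5 was 0.287 (exact 95% interval 0.0815 to 0.830) and of E12.5 to E11.5 3.96 (1.42 to 13.6), intervals that cover counting error only and not the spread between libraries. E12.5 over E10.5 was 1.14 (0.540 to 2.42).

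Ptprc, which encodes the phosphatase CD45 of white blood cells, was the 1 gene of the 9 with an estimate below 0 at E12.5 against both earlier stages. Its CPM was 2.20, 2.15 and 2.42 in the E10.5 libraries, 2.48, 1.92 and 3.21 in those of E11.5 and 1.41, 2.16 and 1.55 in those of E12.5. The stages overlapped in each pair. The log2 fold change was 0.17 (SE 0.27, edgeR adjusted p = 0.724) from E10.5 to E11.5, -0.57 (SE 0.30, edgeR adjusted p = 0.232) from E11.5 to E12.5 and -0.39 (SE 0.33, edgeR adjusted p = 0.425) over the whole span.

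Shares of the reads of the 10 genes were compared for each gene and pair of stages, and none could reach p below 0.1. Mrc1 made up 12.1% ± 2.94, 14.9% ± 0.870 and 19.0% ± 1.12 of their reads from the earliest to the latest stage (SD, n = 3), and Ptprc 6.76% ± 1.72, 6.24% ± 1.65 and 3.26% ± 0.988. For Mrc1 all E12.5 libraries lay above, and for Ptprc all below, those of both earlier stages (exact permutation test, two-sided, p = 0.1 in each of these pairs, the smallest that 3 libraries against 3 allow). The share of C1qa was 4.06% ± 2.26, 6.67% ± 0.576 and 8.93% ± 2.07, with E12.5 above E10.5 in every library (exact permutation p = 0.1). Csf1r held the largest mean share at each stage, 26.5%, 24.1% and 21.1%, with overlapping libraries, and C1qb, C1qc, Tyrobp and Fcer1g also overlapped in each pair. Shares sum to 100%, so a rise of 1 gene lowers the others by construction.

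**Figure D3:**
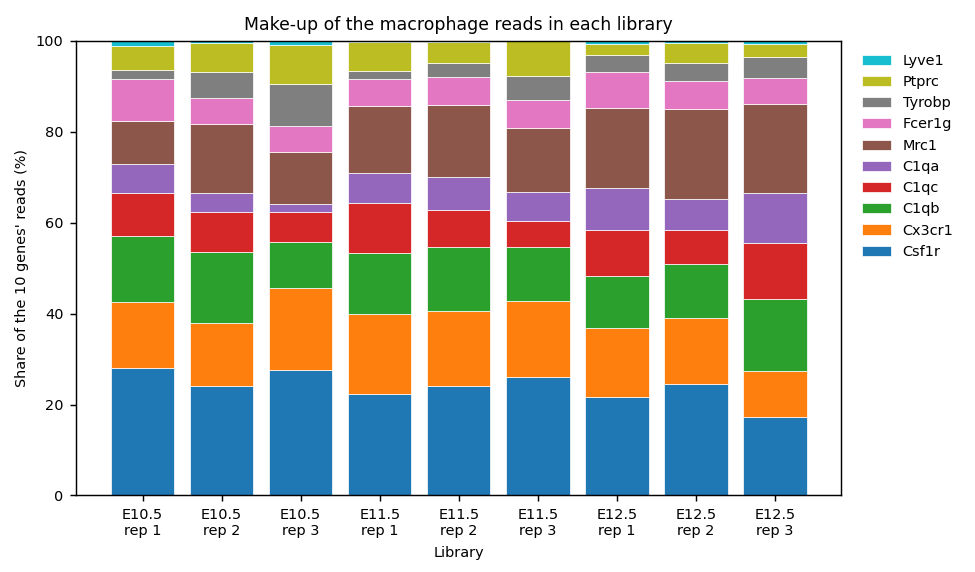
Share of the reads of the 10 macrophage genes taken by each gene, in percent, in each of the 9 libraries (stacked bars that sum to 100%). The Mrc1 segment lies between 17.7% and 19.7% at E12.5 and between 9.44% and 15.2% at E10.5, and the Ptprc segment is between 2.53% and 4.38% at E12.5.

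Within stages the C1q genes varied together, as did Csf1r with Fcer1g and Cx3cr1, whereas most other pairs did not. Deviations of log2 CPM from the stage mean were correlated over the 9 libraries for the 36 pairs of the 9 genes that passed the filter, as a description, since all points share library, depth and base composition. Pearson's r was 0.94 for C1qa with C1qb, 0.80 for C1qb with C1qc and 0.80 for C1qa with C1qc, and over the 36 pairs the median was 0.079. Without E10.5 replicate 3 (8 libraries) these values were 0.77, 0.69 and 0.67, and the median was -0.081. Fcer1g varied with Csf1r (0.84, and 0.80 without that library) and with C1qa (0.83 and 0.73), and Csf1r with Cx3cr1 (0.79 and 0.83). The lowest values were those of C1qc with Tyrobp (-0.69) and with Ptprc (-0.66). Mrc1 and C1qb had r = 0.73, which was 0.26 without E10.5 replicate 3. Tyrobp, which partners many of the receptors on these cells, had r below 0 with 7 of the other 8 genes. Without E10.5 replicate 3 its r went from -0.020 to 0.58 with Mrc1, from -0.43 to -0.029 with C1qb and from -0.69 to -0.57 with C1qc. The sign changed only with Mrc1.

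**Figure D4:**
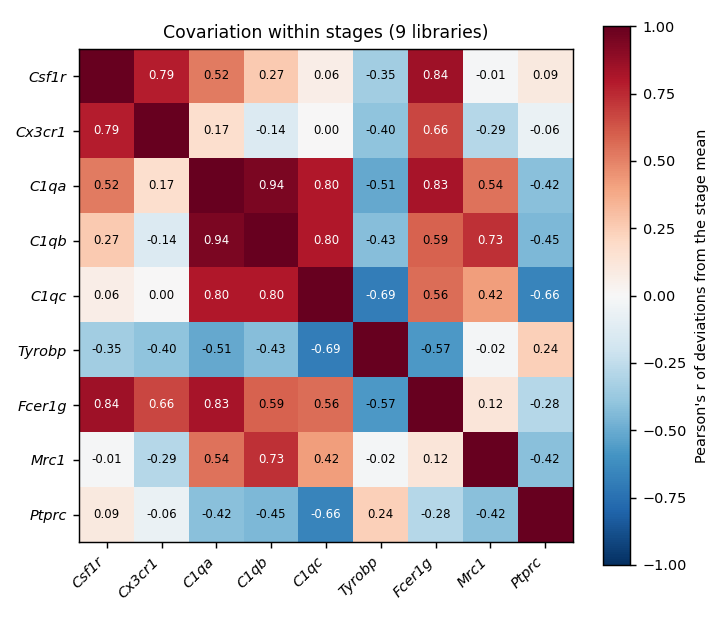
Pearson's r between the deviations of log2 CPM from the stage mean for each pair of 9 macrophage genes over 9 libraries, from -1 (blue) to 1 (red). The block of C1qa, C1qb and C1qc holds values from 0.80 to 0.94, and the rows of Tyrobp and Ptprc are mostly blue.

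Partners of the macrophage genes were taken from hand-written lists. Spi1, which encodes PU.1, had 53, 36 and 12 counts in the E10.5 libraries, 29, 43 and 39 in those of E11.5 and 43, 47 and 44 in those of E12.5, and its log2 fold change over the whole span was 0.35 (SE 0.44, edgeR adjusted p = 0.612). Csf1, the main ligand of CSF1R, had 8.57 ± 1.02 CPM at E12.5 against 5.66 ± 0.790 at E11.5 (SD, n = 3), with no overlap and a log2 fold change of 0.59 (SE 0.19, edgeR adjusted p = 0.0601). Il34, the other ligand, had 0 to 5 counts and was not tested. The pan-macrophage genes Cd68 and Adgre1 (F4/80) had estimates of -0.32 (SE 0.30, edgeR adjusted p = 0.480) and 0.46 (SE 0.37, edgeR adjusted p = 0.3997) over the whole span. Trem2, whose receptor signals through TYROBP, had 0.78 (SE 0.54, edgeR adjusted p = 0.323), and the kinase gene Syk, which binds ITAM chains, 0.66 (SE 0.25, edgeR adjusted p = 0.0810). None of the 6 partners tested was called in any of the 3 comparisons.

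Among 9 genes of CSF1R ligands and related receptors, 6 were tested over the whole span and 1 fell, against 5.08% of all genes. The gene was Csf2rb, the shared chain of the GM-CSF and IL-3 receptors (7.57 ± 1.12 to 2.55 ± 0.673 CPM, SD, n = 3, log2 fold change -1.56, SE 0.29, edgeR adjusted p = 0.00277). Its reads could be shared with its near copy Csf2rb2. The median of this list was 0.50, against -0.0063 over all genes.

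Of the 8 lists, the myeloid transcription factors had the most calls over the whole span, in both directions. Of 17 tested over the whole span, 5 rose and 4 fell, against 9.97% and 5.08% of all genes. The median log2 fold change was 0.38. Cebpa, a factor of myeloid cells, rose by 1.74 (SE 0.24, edgeR adjusted p = 0.000485) and Zeb2 by 2.36 (SE 0.20, edgeR adjusted p = 1.52e-05), both called in all 6 fits that left out 1 library. Zeb2 is also expressed outside the blood lineage. Sall1, which marks microglia but is also a gene of facial and neural progenitors, fell by 1.80 on the log2 scale (SE 0.23, edgeR adjusted p = 0.000262). Also called were Runx1 and Nfam1, which rose, and Irf8, Ikzf1 and Tfec, which fell. Irf8 and Tfec, regulators of myeloid cells, kept their calls in 2 and 3 of the 6 fits that left out 1 library. Without E10.5 replicate 3 the list had 5 higher and 3 lower.

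Of 14 ITAM signaling genes tested over the whole span, 2 rose and 1 fell, against 9.97% and 5.08% of all genes (median log2 fold change 0.11). Blnk, an adaptor best known in B cells and also found in macrophages, had 2, 4 and 8 counts at E10.5 and 44 to 59 at E12.5 (log2 fold change 3.30, SE 0.48, edgeR adjusted p = 0.000694). In this comparison it passed the filter on low counts only through its E12.5 libraries. Plcg2, a phospholipase downstream of SYK, fell by 1.85 on the log2 scale (SE 0.25, edgeR adjusted p = 0.000368), and its libraries did not overlap between any stages.

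Among complement genes other than C1q, 11 were tested over the whole span and 4 rose, against 9.97% of all genes. The median log2 fold change was 0.64. The genes called were C1ra and C1s1, the proteases that C1q activates, Serping1, which inhibits them, and Cd55, which protects cells from complement. Serping1 went from 5.596 ± 0.0889 to 12.1 ± 1.30 CPM (SD, n = 3; log2 fold change 1.12, SE 0.22, edgeR adjusted p = 0.00387), and Cd55 from 1.84 ± 0.463 to 5.13 ± 0.564 CPM (1.49, SE 0.30, edgeR adjusted p = 0.00502). C1ra had 2, 0 and 0 counts in the E10.5 libraries, 3, 4 and 2 in those of E11.5 and 11, 15 and 19 in those of E12.5. It passed the filter on low counts only through its E12.5 libraries. C1s1 had 14, 12 and 3 counts at E10.5 and 26 to 33 at the later stages (log2 fold change 1.59, SE 0.49, edgeR adjusted p = 0.0351), and its call did not hold in 4 of the 6 leave-one-out fits. Reads of C1ra and C1s1 could be shared with their near copies. These 4 genes are made by mesenchyme and other cells as well as by macrophages.

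Of 33 other macrophage and microglia markers tested over the whole span, 3 rose and 1 fell, shares no higher than the 9.97% and 5.08% of all genes, and the median log2 fold change was 0.19. Arhgdib, a regulator of small GTPases in blood cells, had stage means of 10.6 ± 1.79, 37.4 ± 1.08 and 39.9 ± 13.8 CPM (SD, n = 3), and its rise lay in the interval to E11.5 (log2 fold change 1.82, SE 0.15, edgeR adjusted p = 0.00110). Dab2, an endocytic adaptor that is not particular to macrophages, had a log2 fold change of 1.40 (SE 0.20, edgeR adjusted p = 0.000677) over the whole span. The lysosomal protease gene Ctss had 1.36 (SE 0.40, edgeR adjusted p = 0.0286), a call kept in 3 of the 6 fits that left out 1 library. Slc11a1, a metal transporter of phagosomes, fell by 1.99 on the log2 scale (SE 0.55, edgeR adjusted p = 0.0224), with 48, 20 and 13 counts at E10.5 and 7 in each E12.5 library, a call kept in 2 of those 6 fits. In this comparison it passed the filter on low counts only through its E10.5 libraries.

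Among 21 genes of phagocytosis and efferocytosis tested over the whole span, 2 rose, a share near the 9.97% of all genes called higher. They were the receptor kinase gene Axl (log2 fold change 1.35, SE 0.17, edgeR adjusted p = 0.000276) and the lipid exporter gene Abca1 (1.009, SE 0.26, edgeR adjusted p = 0.0172). Axl was called in all 6 fits that left out 1 library and Abca1 in 3 of them, not without E10.5 replicate 3. Of 5 chemokine and cytokine genes tested, 1 rose, against the same 9.97%. It was Pf4 (1.16, SE 0.28, edgeR adjusted p = 0.0128), which platelets and megakaryocytes also express. Of 6 antigen presentation genes tested, 2 rose and 1 fell, against 9.97% and 5.08% of all genes. Tap1 had 1.72 (SE 0.29, edgeR adjusted p = 0.00157), and Cd74, the invariant chain of MHC class II, had 7, 0 and 1 counts in the E10.5 libraries, 12, 8 and 8 in those of E11.5 and 28, 23 and 23 in those of E12.5 (3.08, SE 0.73, edgeR adjusted p = 0.0108). Over the whole span Cd74 passed the filter on low counts only through its E12.5 libraries. H2-K1 fell by 1.02 on the log2 scale (SE 0.32, edgeR adjusted p = 0.0408), but class I genes are near copies of each other and the call was kept in 3 of the 6 fits that left out 1 library, not without E10.5 replicate 3. The medians of these lists were 0.36, 0.25 and 0.23. Without E10.5 replicate 3 the numbers called higher and lower over the whole span were 0 and 2 for the CSF1R list, 1 and 0 for phagocytosis and 3 and 0 for antigen presentation. They did not change for ITAM signaling, complement, the other macrophage markers and the chemokines.

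**Figure D5:**
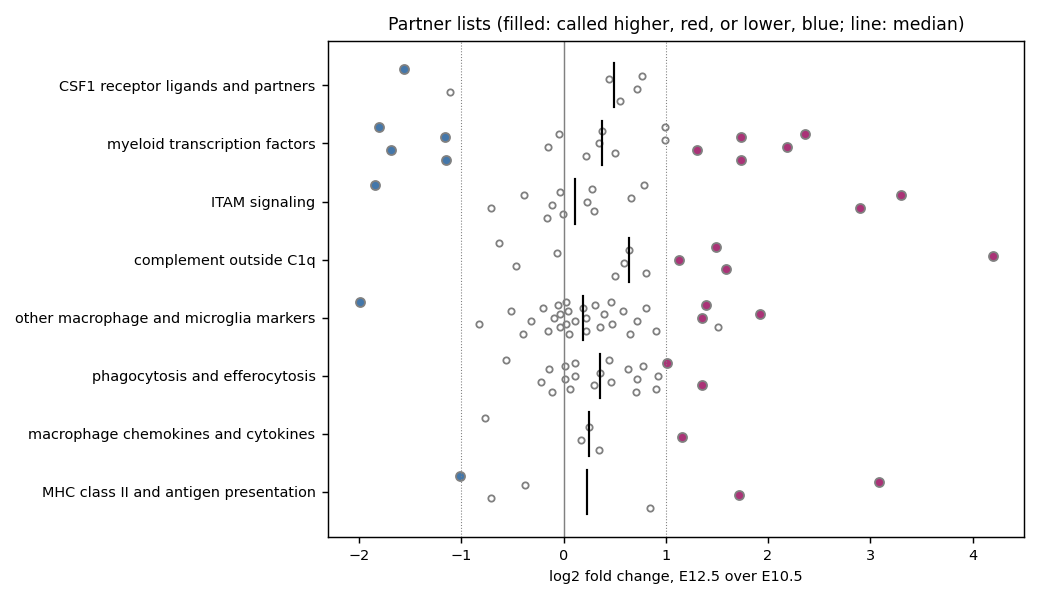
Log2 fold change of E12.5 over E10.5 for every tested gene of the 8 partner lists (points), with the list median as a black line; filled points were called higher (red) or lower (blue). Medians lie between 0.11 (ITAM signaling) and 0.64 (complement outside C1q), and the transcription factors hold 5 red and 4 blue points.

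Genes with the pattern most like that of the macrophage genes were sought by correlating log2 CPM of 16366 other genes with the mean standardized log2 CPM of the 9 macrophage genes over the 9 libraries. The 10 highest were Bace2 (r = 0.99), Sstr2, Emilin3, Insyn1, Btd, Irx1, Camk2n1, Loxl1, Phf1 and 5033430I15Rik (r = 0.97). None of them is on a list of macrophage genes or of cell type markers. Of the macrophage lists, Gas6, a ligand of AXL, had r = 0.912 (rank 296) and Cd14, a co-receptor for lipopolysaccharide, r = 0.91 (rank 309). The mean of the 9 genes was lowest in E10.5 replicate 3 and highest in E12.5 replicate 1, and without E10.5 replicate 3 only 4 of the 10 genes were the same.

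Markers of other blood and vessel cells were followed over the same stages. Over the whole span 9.97% of all genes tested were called higher and 5.08% lower. Mast cell markers summed to 0.186 to 0.238 CPM in the E10.5 libraries, 0.484 to 1.202 in those of E11.5 and 2.92 to 3.78 in those of E12.5, with Mcpt4, Tpsb2 and Fcer1a at 0 in every library. The protease gene Cpa3 had 0, 0 and 1 counts at E10.5 and 37, 30 and 33 at E12.5, and Hdc 4, 4 and 2, then 28, 31 and 14. These were the only genes of that list tested over the whole span, and both were called higher at E12.5. Both passed the filter on low counts only through their E12.5 libraries, so a call in the other direction was hardly possible. The other 5 genes of the list had at most 3 counts in every library. Neutrophil markers summed to 5.08 to 7.31, 7.27 to 8.22 and 8.17 to 14.6 CPM, and 2 of 4 tested, S100a8 and S100a9, were called higher, from 0 counts in all E10.5 libraries to 15 to 46 and 10 to 24 at E12.5. These 2 also passed the filter only through E12.5. The other 2 tested, Mpo and Prtn3, had log2 fold changes of 0.08 (SE 0.57, edgeR adjusted p = 0.938) and 0.02 (SE 0.26, edgeR adjusted p = 0.966). Lymphocyte markers summed to 9.15 to 11.6, 12.1 to 13.3 and 9.75 to 10.97 CPM, with Cd3e and Ms4a1 at 0 in every library and 0 of 2 tested called over the whole span. Their part in the values of Fcer1g, Tyrobp and Ptprc was not tested.

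Lymphatic endothelial markers summed to 85.8 to 105, 89.5 to 100.4 and 127 to 144 CPM. Over the whole span 2 of 6 tested were called higher, Sox18 and Reln, against 9.97% of all genes. In the other direction 1 was called lower, Prox1, the defining factor of that lineage, against 5.08% of all genes. The call of Prox1 was kept in 2 of the 6 leave-one-out fits, not without E10.5 replicate 3. The estimates of Flt4 (-0.678) and Pdpn (-0.395) were also below 0 and that of Mmrn1 (0.066) above. The list median was -0.164. Sox18 went from 16.2 to 59.6 CPM and Reln from 8.48 to 22.7 CPM. Blood endothelial markers summed to 174 to 517, 465 to 474 and 456 to 502 CPM, with 1 of 15 called higher, Erg, against 9.97% of all genes. Megakaryocyte and platelet markers summed to 15.3 to 34.2, 55.8 to 63.5 and 36.7 to 55.6 CPM, with 2 of 7 called higher, against the same 9.97%. Their part in the values of Mrc1, Lyve1, Fcer1g and Pf4 was not tested. Facial mesenchyme markers, which check the tissue label, summed to 1296 to 2294, 3370 to 3688 and 3990 to 4429 CPM, epithelial markers to 473 to 838, 464 to 495 and 690 to 778 CPM, and forebrain and neuron markers to 321 to 418, 227 to 253 and 324 to 357 CPM. Over the whole span 4 of 8 mesenchyme markers tested were called higher and 1 lower. Of 8 forebrain and neuron markers 1 was called higher (Stmn2) and 3 lower (Sox1, Sox2 and Rax). Sox1 had 857, 649 and 932 counts at E10.5, 4, 24 and 10 at E11.5 and 34, 6 and 1 at E12.5. Rax had 132, 25 and 50, then 0, 0 and 1, then 2, 5 and 12. The part of tissue make-up in the stage differences of the 10 genes was not tested.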

How the data were processed

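RNA-seq libraries of lambdoidal junction tissue (E10.5, E11.5 and E12.5, n = 3 each) were grouped by the labels' developmental stage. The authors mapped reads to GRCm38/mm10 with HISAT2 2.0.5 and deposited featureCounts counts per gene, without normalization. The deposited FPKM are scaled by depth and gene length, as the authors computed them. The deposited log2 fold changes and p-values are the authors' own comparisons and, like their normalized signal (mean counts per stage), were not used. The strand setting and the treatment of multi-mapping reads are not given in the sources used here.

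Depth was 16581009 to 20836804 counts per library, PCR-amplified reads without molecular identifiers. Stages were compared in pairs (6 libraries per fit) in R 4.3.3 with edgeR 4.0.16 (filterByExpr, TMM, quasi-likelihood test, Benjamini-Hochberg over all genes tested), and called at adjusted p of at most 0.05 and absolute log2 fold change of at least 1. SE is the log2 fold change over the square root of F. Log2 CPM for correlations had a prior count of 2. Scripts were tested on simulated data. Alternatives were DESeq2 1.42.0, other scalings, no filter, a joint fit, a replicate block, hemoglobin genes left out, GC trend removed (lowess, span 0.3) and each library left out; GC removal together with leaving out E10.5 replicate 3 was chosen after seeing the data.

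The genes and all lists were chosen with earlier results of these data known. Named genes are the 10 genes, up to 4 called genes per list with the smallest p in E12.5 vs. E10.5, the 10 best correlated genes, and Cd68, Adgre1, Spi1, Csf1, Il34, Trem2 and Syk. Runx1, Nfam1, Irf8, Ikzf1, Tfec and the marker genes were named after their values were seen. The symbol Ccl21a did not match a single row and was left out. Sequences are from RefSeq promoter windows. Values of a few genes that this rule would name are left out.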

Additional observations from a re-analysis of the deposited data

How the results depend on the processing

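The number of macrophage genes called was 0 in E11.5 vs. E10.5 under every alternative run, 0 in E12.5 vs. E11.5 except that 1 gene, Mrc1, passed with no fold-change threshold, and 2 in E12.5 vs. E10.5 except for 1 to 2 when 1 library was left out. The 1 was Mrc1, without E10.5 replicate 2, E12.5 replicate 1 or E12.5 replicate 3. The test between intervals called 0 in every alternative. Of the 10 genes with the most similar pattern, 8 were shared with a prior count of 0.5, and 4 to 8 when 1 library was left out, fewest without E10.5 replicate 3.

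Estimates that changed sign were small. Removing the GC trend and leaving out E10.5 replicate 3 gave 0.066 for Tyrobp and -0.147 for Fcer1g in E11.5 vs. E10.5, and no filter on low counts gave -0.003 for Cx3cr1 in E12.5 vs. E11.5. With 1 library left out, log2 fold changes in E11.5 vs. E10.5 ranged from -0.074 to 0.398 for C1qb, -0.029 to 0.478 for C1qc, -0.182 to 0.546 for Fcer1g and -0.028 to 0.344 for Ptprc. They ranged from -0.124 to 0.156 for Cx3cr1 in E12.5 vs. E11.5 and from -0.102 to 0.614 for Tyrobp in E12.5 vs. E10.5. The later minus the earlier change ranged from -0.146 to 0.206 for Csf1r, -0.715 to 0.309 for C1qa, -0.032 to 0.403 for C1qb, -0.055 to 0.633 for Fcer1g and -0.033 to 0.323 for Mrc1. The cause was not tested. In DESeq2 the median of all genes in that contrast was 0.119, against 0.0125 in edgeR. Genes whose intervals differed numbered 194 of all genes in edgeR, 472 in DESeq2, 700 with no filter and 337 with the GC trend removed and without E10.5 replicate 3.

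The replicate numbers did not pair the libraries: deviations of same-numbered libraries had r of -0.151 to 0.22, with 2 of 9 pairs above 0.1, and 0 libraries correlated best with their own number. With the replicate block 0, 0 and 2 genes were called, and Mrc1 and C1qa had log2 fold changes of 1.32 and 1.77 over the whole span. The counts of 451 to 990 reads per library on the 10 genes limit what could be seen, most of all for Lyve1, Tyrobp and Ptprc.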
